A study of Mus musculus with 72 samples.

Results

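The genes described here are 9 markers of skeletal muscle (Acta1, Myh1, Myh2, Myh4, Tnnt3, Tnni2, Tnnc2, Mylpf and Actn3), of the 53715 genes in the count files. They were taken by name, whatever their values, and followed in each of the 36 heart libraries, to ask whether they moved together. The study sequenced atria and ventricles of 18 male C57BL/6J mice aged 18 weeks. Of these, 6 were Gnb5-/- (homozygous for a deletion of exon 3 of Gnb5), 6 were Gnb5+/- and 6 were Gnb5+/+, with both tissues taken from each mouse. Each group therefore held 6 libraries, 1 mouse each. Whole left and right atria, or whole left and right ventricles, were processed, so a library mixed the cells of the chamber with whatever tissue adhered to it.

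Skeletal muscle fibres and heart muscle cells build the same sarcomere from different gene copies. Fast fibres use myosin heavy chains from a gene cluster (Myh1, Myh2, Myh4), the fast regulatory light chain Mylpf, the fast troponins Tnnt3, Tnni2 and Tnnc2, and the Z-disc protein Actn3. Heart muscle uses Myh6 and Myh7, Myl2 or Myl7, Tnnt2, Tnni3, Tnnc1 and Actn2. Acta1, the skeletal actin, is the exception, since heart muscle also makes it beside the cardiac actin Actc1. On GRCm38, the 3 myosins lie side by side on chromosome 11, Myh2 from 67171027 to 67197517, Myh1 from 67200052 to 67224575 and Myh4 from 67238029 to 67260446. Tnni2 (142441808 to 142444410) and Tnnt3 (142498836 to 142516009) are neighbours on chromosome 7, where Mylpf (127208890 to 127214298) also lies. Acta1 is on chromosome 8 (123891769 to 123894751), Tnnc2 on chromosome 2 (164777161 to 164779967) and Actn3 on chromosome 19 (4861216 to 4877909). Counts are of reads on the exons of these genes. In bulk tissue, fewer cells of a type and less RNA per cell cannot be told apart.

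The promoters of the 5 members that stood apart in 1 library, as described below, are shown as the 250 bases before a transcript start in RefSeq on GRCm38.p6, where 6 of the 9 members had an entry. The windows were Myh1 at chr11:67199852-67200101 (plus strand), Myh2 at chr11:67170777-67171026 (plus), Myh4 at chr11:67237562-67237811 (plus), Tnnc2 at chr2:164779735-164779984 (minus) and Mylpf at chr7:127211358-127211607 (plus). The RefSeq starts are not always the gene starts given above, which are those of GENCODE M21. They are the same for Myh2, while the RefSeq start lies 217 bases before the GENCODE one for Myh4 and 50 bases inside the gene for Myh1, 233 for Tnnc2 and 2718 for Mylpf. Capitals mark matches, searched on both strands, to the E-box (spelled CANNTG), to the M-CAT element (spelled CATTCC) and to the MEF2 and CArG motifs. They also mark, on the gene's own strand alone, the sequence TATAAA of a TATA box.
Myh1: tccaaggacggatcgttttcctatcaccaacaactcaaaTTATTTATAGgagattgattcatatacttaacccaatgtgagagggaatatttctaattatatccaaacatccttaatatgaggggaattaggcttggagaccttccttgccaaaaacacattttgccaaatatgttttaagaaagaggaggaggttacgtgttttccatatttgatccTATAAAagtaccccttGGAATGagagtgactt
Myh2: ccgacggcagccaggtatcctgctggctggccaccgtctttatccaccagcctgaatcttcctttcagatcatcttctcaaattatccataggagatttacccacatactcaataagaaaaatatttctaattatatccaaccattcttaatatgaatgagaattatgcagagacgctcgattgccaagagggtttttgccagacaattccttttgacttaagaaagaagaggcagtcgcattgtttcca
Myh4: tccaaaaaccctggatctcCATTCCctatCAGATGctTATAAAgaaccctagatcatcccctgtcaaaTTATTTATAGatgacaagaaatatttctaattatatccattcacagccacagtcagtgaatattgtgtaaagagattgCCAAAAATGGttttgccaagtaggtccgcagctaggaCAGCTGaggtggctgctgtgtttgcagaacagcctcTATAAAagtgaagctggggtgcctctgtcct
Tnnc2: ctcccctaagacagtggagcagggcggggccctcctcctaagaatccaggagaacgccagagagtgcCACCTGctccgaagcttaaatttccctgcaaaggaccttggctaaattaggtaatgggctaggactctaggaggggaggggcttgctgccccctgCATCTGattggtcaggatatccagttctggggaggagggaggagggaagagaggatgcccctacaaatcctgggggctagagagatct
Mylpf: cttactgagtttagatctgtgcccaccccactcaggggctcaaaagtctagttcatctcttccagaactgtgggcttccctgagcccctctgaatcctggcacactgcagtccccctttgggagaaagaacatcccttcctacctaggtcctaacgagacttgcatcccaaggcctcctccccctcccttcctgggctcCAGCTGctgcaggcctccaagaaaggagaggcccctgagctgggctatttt
No 2 matches overlapped in these windows. The E-box was in 66.2% of 32851 mouse promoters, the M-CAT element in 12.6%, the TATA box in 7.59%, MEF2 in 2.92% and CArG in 1.47%. Myh4 held all 5 motifs, Tnnc2 and Mylpf held E-boxes alone, and the window of Myh2 held none of the 5. The other members, Tnnt3, Tnni2 and Actn3, had no entry. The matches describe these letters and no binding was measured.

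Depth ran from 29355469 to 46118252 reads on genes in a heart library, and no 2 libraries were identical. Gnb5 itself was at 21.7 to 27.4 CPM in Gnb5+/+ atria, 11.5 to 15.8 in Gnb5+/- and 1.23 to 2.16 in Gnb5-/-, with the same order and no overlap in ventricles. CPM are counts divided by the library total and scaled to a common size with edgeR's TMM factors over the 36 heart libraries. Heart markers were high throughout, the 8 cardiac muscle genes summing to at least 30836 CPM in every library. The ventricular library of Gnb5+/- mouse 4 stood apart, with 2.85% of its reads outside genes against a median of 5.64% over the heart libraries. The files count reads and not molecules, so intervals below cover counting error alone.

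The fast myosins Myh1, Myh2 and Myh4 and the troponin C Tnnc2, which binds the calcium that starts contraction in fast fibres, were close to absent from nearly every heart library. The exception was the atrial library of Gnb5-/- mouse 1. It held 281 reads of Myh1, 293 of Myh2, 368 of Myh4 and 102 of Tnnc2. In the other 17 atria the highest counts were 3, 7, 38 and 4, in the same order. Among these 17, the 38 reads of Myh4 came from Gnb5+/- mouse 4, and no other library exceeded 3. Mylpf, the light chain that binds to these myosins, had 130 reads in Gnb5-/- mouse 1 and 12 to 35 in the others, so its level there was 2.61 times the highest of the others. The level of Myh2 in that library was 35.6 times the highest of the others, that of Tnnc2 21.7 times and that of Myh4 8.26 times.

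**Figure D1:**
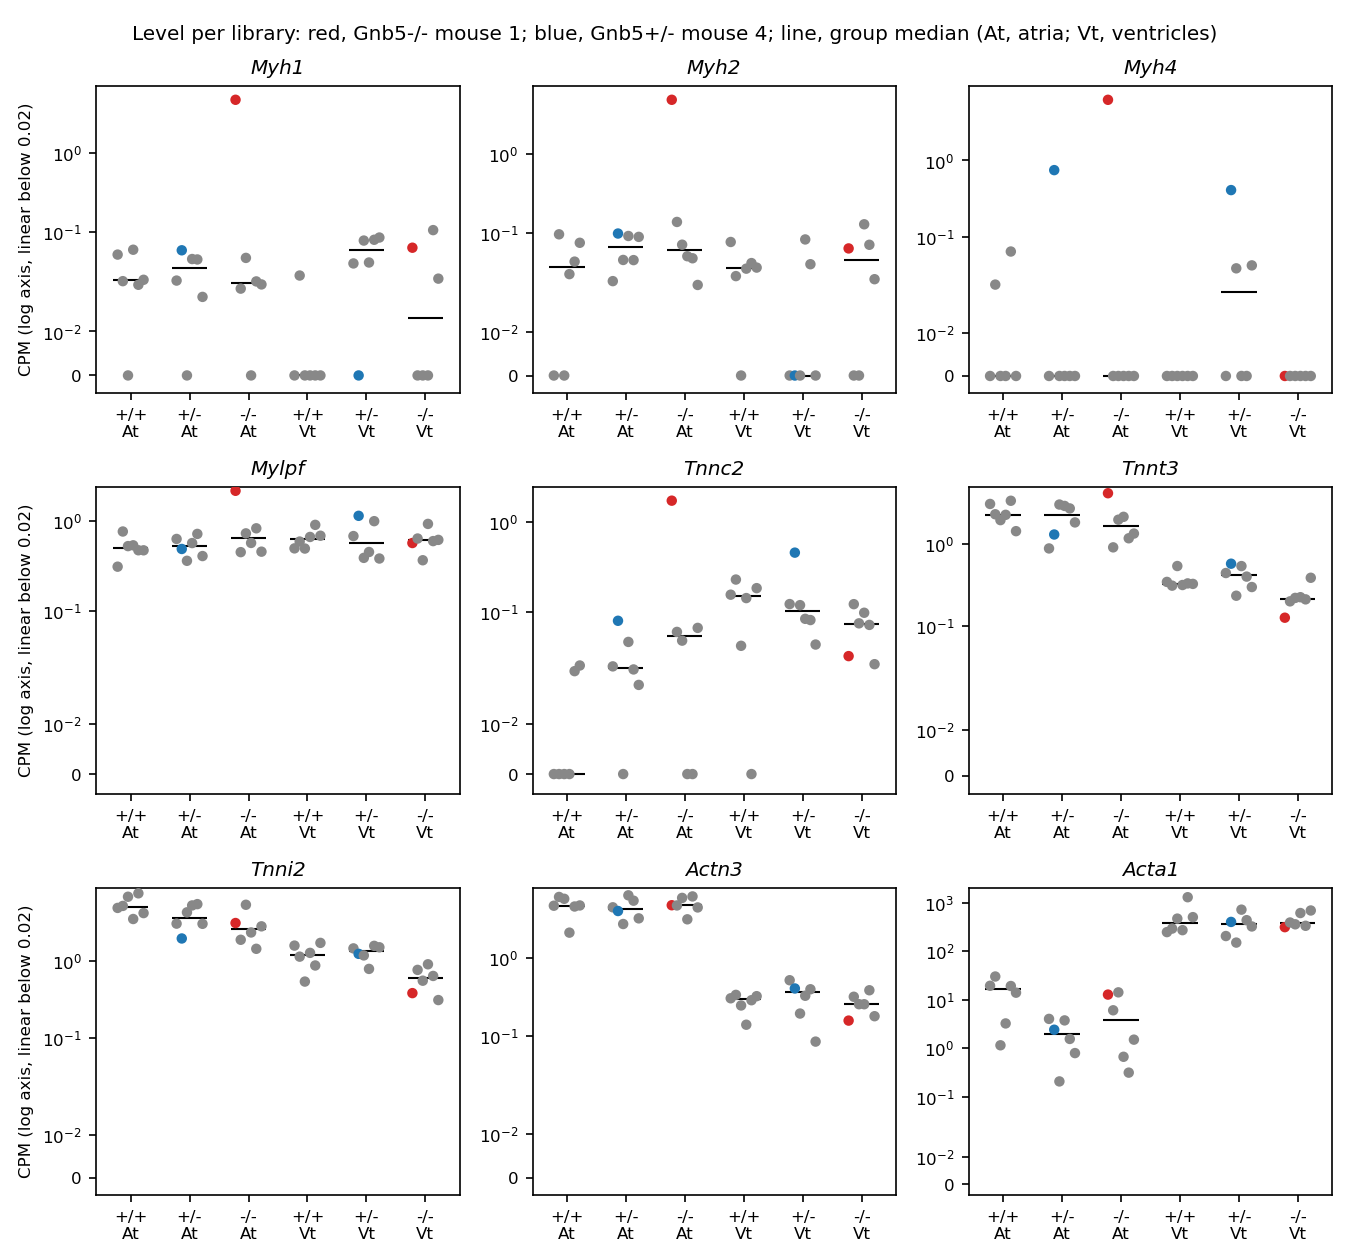
Level of each member (CPM, log axis, linear below 0.02) in the 36 heart libraries, by genotype and tissue, 6 libraries a group. Points are libraries, lines are group medians, red is Gnb5-/- mouse 1 and blue is Gnb5+/- mouse 4. The red atrial point lies far above the rest for Myh1, Myh2, Myh4, Tnnc2 and Mylpf, whereas for Tnni2, Actn3 and Acta1 it lies among the other atria.

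The remaining 4 members did not stand out in the same way. Tnni2, the inhibitory troponin of fast fibres, had 184 reads in this library and 60 to 346 in the other 17 atria. Actn3 had 285 reads against 71 to 295, and Acta1 had 753 against 9 to 1241. All 3 lay inside the range of the other atria. Tnnt3, which anchors troponin to tropomyosin, had the highest count of the 18 atria, 245 against 36 to 154, or 1.23 times the next highest level. The summed level of the 8 members other than Acta1 was 31.7 CPM in this library and 8.22 to 16.1 CPM in the other 17. Tnni2, Actn3 and Tnnt3 together made up 37.8% of that sum in Gnb5-/- mouse 1 and 83.1% to 97.2% of it in the others. The ventricular library of the same mouse held 2 reads each of Myh1 and Myh2, none of Myh4 (which allows up to 3 reads) and 1 of Tnnc2, all at or under the level of the other ventricles' highest.

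**Figure D2:**
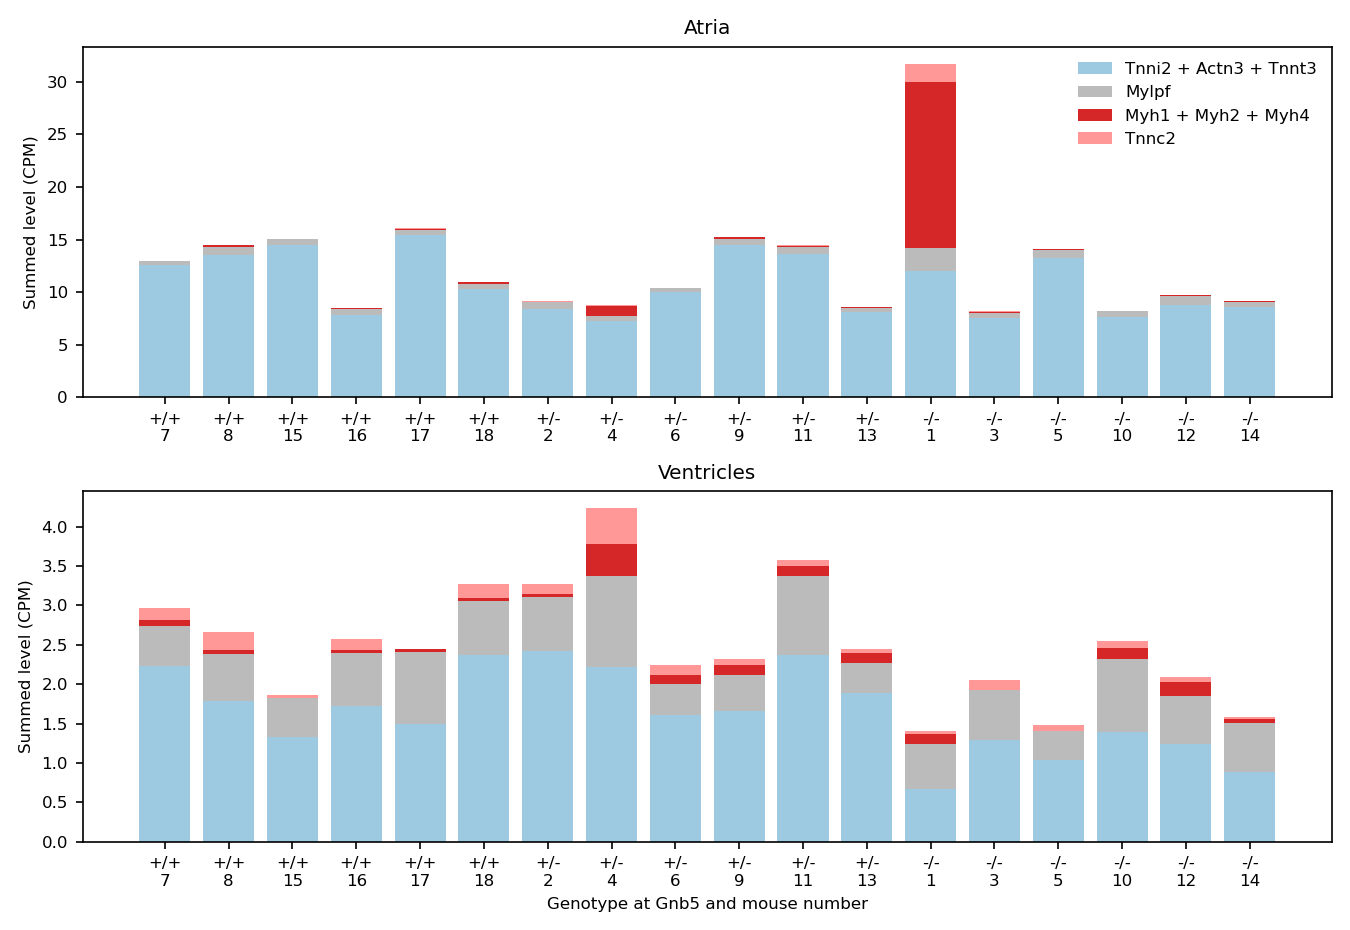
Summed level (CPM) of the 8 members other than Acta1 in each library, split into Tnni2 with Actn3 and Tnnt3, Mylpf, the 3 fast myosins, and Tnnc2. The axes of the panels differ. The myosins form a large part of the bar in the atria of Gnb5-/- mouse 1, whose sum is 31.7 CPM, and a small part in the other atria.

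The other libraries with more than a trace of a fast myosin came from Gnb5+/- mouse 4. Its atria held 3 reads of Myh1, 5 of Myh2 and 38 of Myh4, and its ventricles held 10 of Myh4, 11 of Tnnc2 and none of Myh1 or Myh2. That ventricular library was also shifted in cardiac muscle markers, in both directions. Ryr2 was at 875 CPM against 2216 to 3234 in the other 17 ventricles, and Tnnc1 at 3845 against 1662 to 2265. Mylpf (1.15 CPM against at most 1.00) and Tnnt3 (0.576 against at most 0.539) were also highest there. Over the remaining 16 atria the 3 myosins summed to between 0 and 8 reads, with a median of 3.5, and over the remaining 17 ventricles to between 0 and 5. The mix of myosins differed between the 2 mice. Myh4 took 39.1% of the 942 myosin reads in the atria of Gnb5-/- mouse 1 (upper Wilson 95% bound 42.2%), beside 29.8% for Myh1 and 31.1% for Myh2. In the atria of Gnb5+/- mouse 4 it took 82.6% of 46 reads (lower bound 69.3%). The myosins share some sequence, since 5.29% of the read-length stretches of the Myh1 transcript, 4.25% of those of Myh2 and 1.88% of those of Myh4 were also in another gene, so a few reads could not be assigned.

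A wider list of 27 other skeletal muscle genes was read in the same way. In the atria of Gnb5-/- mouse 1, 7 of the 27 were at their highest of the 18 atria, and for 2 of these the level was more than 2 times the next. Mybpc1, a myosin-binding protein of slow and fast fibres, had 140 reads against at most 4. Ryr1, the calcium release channel of skeletal muscle, had 104 against 3 to 23, or 3.36 times the next highest level. The remaining 5 (Ampd1, Musk, Myog, Myoz1 and Cacng1) were at 1.03 to 1.62 times the next, from 2 to 25 reads. Many other genes of the list did not stand out. Myl1, the fast alkali light chain, had 4511 reads against 4582 to 24383, the lowest of the 18 atria. Atp2a1, the fast calcium pump, had 827 against 279 to 1705. For 7 of the 27 no atrial library exceeded 3 reads, and among these were the muscle regulators Myod1, Myf5, Myf6 and Pax7, with none, none, 1 and none in this library.

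To see what else stood apart in a library, all genes were searched for at least 30 reads and at least 5 times the level of any other library of the tissue. This search and the genes it named were chosen after the values were seen. The atria of Gnb5-/- mouse 1 had 16 such genes, those of Gnb5+/- mouse 4 had 57, and the other 16 atria had between 0 and 2. Of the 16, 5 were muscle genes (Myh1, Myh2, Myh4, Mybpc1 and Tnnc2). Among the other 11, Chat, which makes acetylcholine, had 40 reads against at most 3, and Slc18a3, which loads it into vesicles, had 38 against at most 3. Prph, a filament of peripheral neurons, had 161 against at most 23. The synaptic vesicle proteins Sv2c, Rab3c and Syt2 had 158, 233 and 39 reads, against at most 13, 28 and 5. The last 5 were Slc7a14, Tenm2, Slc10a4, Kcnip4 and Cartpt, with 45 to 78 reads against at most 6 to 10. No list of nerve genes was tested, and neither was the part of any other tissue in this library.

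**Figure D3:**
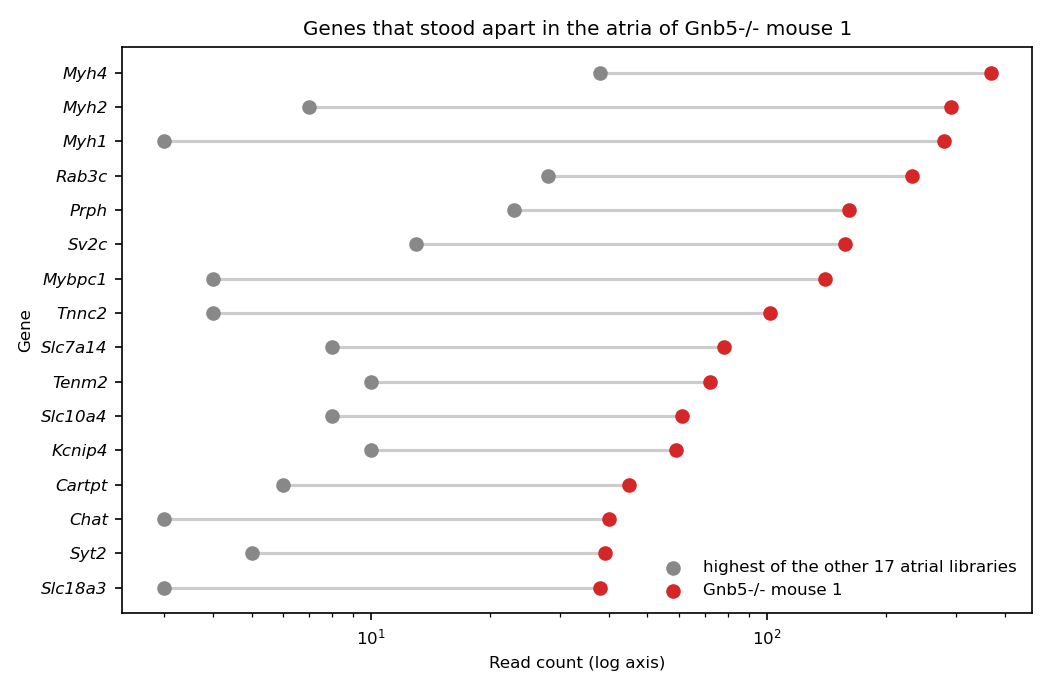
Read counts (log axis) of the 16 genes that stood apart in the atria of Gnb5-/- mouse 1 (red), beside the highest count among the other 17 atria (grey). Myh4, Myh2 and Myh1 head the list with 368, 293 and 281 reads, followed by Rab3c with 233 and Prph with 161.

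Markers of other tissues were followed beside these counts. Fat markers (6 genes) summed to 68.7 CPM in the atria of Gnb5-/- mouse 1, inside the range of 4.44 to 252 CPM of its group. In Gnb5+/+ atria the same sum was 4.68 to 23.2 CPM and in Gnb5+/- atria 20.4 to 94.8. Ucp1, the uncoupling protein of brown fat, had 340 reads there against at most 180 in the other atria. Thymocyte markers (6 genes) summed to 3.08 to 5.73 CPM in Gnb5-/- atria and 2.28 to 3.24 in Gnb5+/+ atria. In Gnb5+/- atria they reached 147 CPM, in mouse 4, where each of the 6 was at least 5.90 times its highest level in the other atria outside Gnb5-/- mouse 1. Rag1, the recombinase of developing lymphocytes, had 2489 reads there against at most 136. The same library had 1731 reads of the fat hormone Lep against at most 83. Squamous epithelium markers (5 genes) were at 1.26 to 6.88 CPM over the 18 atria. The highest sum was in the atria of Gnb5+/- mouse 4, where Krt5 had 149 reads against 0 in all other atria. There 3 of the 5 were higher than in the 16 other atria outside Gnb5-/- mouse 1. Of the 5 lung epithelium markers, 4 never exceeded 3 reads in an atrial library. Whether these tissues account for the muscle counts was not tested.

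No correlation of a member with the others passed a test, with or without the atrial library of Gnb5-/- mouse 1. Libraries were permuted within genotype, 6 each, so a rise shared in 1 library alone stays matched in about 1 of 6 permutations. The test could therefore hardly detect a rise confined to 1 library, and it does not decide whether members rose together there. Each member was correlated with the summed level of the others except Acta1, on log2 CPM with genotype means removed, over the 18 libraries of a tissue. In the 17 atria without Gnb5-/- mouse 1, Tnni2, Actn3 and Tnnt3 made up 83.1% to 97.2% of the sum of the 8. The sum in atria therefore mainly follows these 3 genes. None of the 18 relations had a Benjamini-Hochberg adjusted permutation p below 0.05 for Pearson's r or Spearman's rho. By r, the highest in atria were Tnnc2 (r = 0.72, p = 0.0634, adjusted p = 0.201; rho = 0.47, p = 0.0719, adjusted p = 0.185), Mylpf (r = 0.72, p = 0.0205, adjusted p = 0.197; rho = 0.54, p = 0.0371, adjusted p = 0.182) and Myh1 (r = 0.71, p = 0.0670, adjusted p = 0.201; rho = 0.40, p = 0.130, adjusted p = 0.249). Without the 2 libraries farthest from the median of the sum, which included Gnb5-/- mouse 1 each time, these values of r were 0.02, 0.35 and 0.09. The relations of these 3 genes in atria therefore rested on few libraries. By rho, the highest in atria was Tnni2 (rho = 0.60, permutation p = 0.0115, adjusted p = 0.182; r = 0.41, p = 0.182, adjusted p = 0.273). This one did not rest on that library, since over the 17 atria without Gnb5-/- mouse 1 it had r = 0.55 (permutation p = 0.0278, adjusted p = 0.251) and rho = 0.57 (p = 0.0299, adjusted p = 0.233). In ventricles, over 18 libraries, r ran from -0.37 (Myh1, permutation p = 0.181, adjusted p = 0.273) to 0.53 (Tnnc2, permutation p = 0.0225, adjusted p = 0.197). The mean of log2 levels, which weighs the other members equally, gave higher r over the 18 atria. Myh1 had r = 0.94 (permutation p = 0.0150, adjusted p = 0.113) and Tnnc2 r = 0.93 (permutation p = 0.00746, adjusted p = 0.113). No relation had an adjusted p below 0.05 with this mean either.

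Members were also set against each other in pairs. In atria the 10 pairs among Myh1, Myh2, Myh4, Tnnc2 and Mylpf had r between 0.66 and 0.94, with a median of 0.86. Without Gnb5-/- mouse 1 the same pairs had r between -0.15 and 0.49, with a median of 0.25. In ventricles they had r between -0.42 and 0.52, and between -0.51 and 0.41 without the library of Gnb5+/- mouse 4. The 3 pairs among Tnni2, Tnnt3 and Actn3 in atria had r between -0.06 and 0.59 with that library and between -0.07 and 0.63 without it. These correlations over pairs are descriptions, since pairs share libraries and depth.

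**Figure D4:**
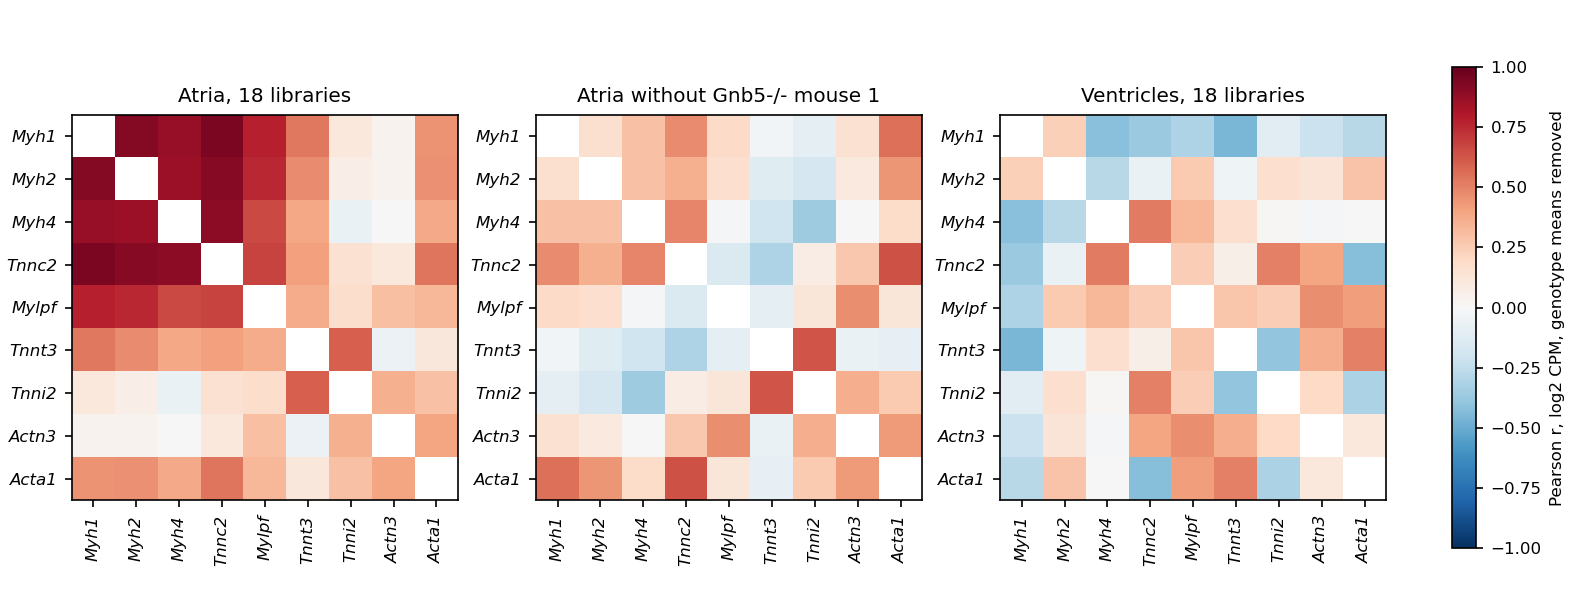
Pearson's r between each pair of members, on log2 CPM with genotype means removed, over 18 atria, 17 atria without Gnb5-/- mouse 1, and 18 ventricles. The block of high r among Myh1, Myh2, Myh4, Tnnc2 and Mylpf (0.66 to 0.94) in the left panel falls to -0.15 to 0.49 in the middle panel. These genes were grouped after they stood apart in Gnb5-/- mouse 1.

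In atria 16176 genes were ranked by r with the summed level of the 8 members over the 18 libraries. The top of so long a ranking can reach a high r without a link, and it was not tested. The closest were Uchl1 (0.81), Htr3a (0.81), Slc25a45 (0.80), Snph (0.77) and Zfp27 (0.75). They were followed by Zfp108, Crybb1, Zfp954, Ryr1 and Ufsp1, with r down to 0.69. Uchl1, a ubiquitin hydrolase abundant in neurons, was at 9.01 CPM in Gnb5-/- mouse 1 and at most 6.04 in the other atria. Htr3a, a serotonin-gated channel of nerve cells, was at 1.65 CPM against at most 0.436. Without that library r fell to 0.52 for Uchl1, to 0.55 for Htr3a and to 0.20 for Ryr1, and it was 0.87 for Zfp27. In ventricles, where 14862 genes were ranked, the closest were Adam15, Tubb5, 1110008P14Rik, Spsb4, Slc35c2, Cbx8, Arhgap22, Cyren, Wdr83 and Ap2m1 (r from 0.79 to 0.83). Of these 10, 7 were highest in the library of Gnb5+/- mouse 4 that stood apart.

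Levels in the atria and ventricles of the same mouse were then set against each other. Over 18 mice with genotype means removed, no member passed an adjusted p of 0.05 in 9 relations. Actn3 came closest (r = 0.60, permutation p = 0.0127, adjusted p = 0.114; rho = 0.54, p = 0.0296, adjusted p = 0.266), with r = 0.44 without the 2 mice farthest from the median. Tnni2 had r = -0.44 (p = 0.0778, adjusted p = 0.350) and Tnnt3 r = -0.42 (p = 0.131, adjusted p = 0.377). Myh4 had r = 0.46 (p = 0.168, adjusted p = 0.377), and mouse 4 was the one mouse with 10 or more reads of it in both tissues. Without Gnb5-/- mouse 1 r for Myh4 was 0.90 (permutation p = 0.166, adjusted p = 0.499), and without the 2 mice farthest from the median, which were these 2, it was 0. In ventricles only Gnb5+/- mice held reads of Myh4, and in Gnb5+/- atria only mouse 4 did. Permutations within 6 mice return mouse 4 to its place about 1 time in 6. These permutation p-values for Myh4 are therefore about the lowest the test could give.

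The members did differ between the chambers, and in both directions. Acta1 was higher in ventricles in 18 of 18 mice. It was at 0.205 CPM (lowest), 3.46 (median) and 29.9 (highest) in atria and at 150, 373 and 1292 in ventricles. The 2 sets of libraries did not overlap, and the median of the ratios within mice was 126. The log2 difference, ventricles minus atria with the mouse as a block, was 6.63 (SE 0.47, edgeR adjusted p = 1.92e-12). The Z-disc gene Actn3 went the other way, at 2.13, 4.74 and 6.42 CPM in atria and 0.0857, 0.299 and 0.524 in ventricles. It was higher in atria in 18 of 18 mice without overlap, with a log2 difference of -4.02 (SE 0.11, edgeR adjusted p = 8.73e-21).

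Tnnt3 was also higher in atria in 18 of 18 mice without overlap. It was at 0.882, 2.05 and 4.12 CPM in atria and at 0.127, 0.322 and 0.576 in ventricles, a log2 difference of -2.60 (SE 0.19, edgeR adjusted p = 2.40e-12). Tnni2 was higher in atria in 18 of 18 mice, at 1.43, 3.82 and 7.50 CPM against 0.311, 1.02 and 1.71. Its lowest atrial library overlapped with the highest ventricular ones, and the log2 difference was -1.93 (SE 0.18, edgeR adjusted p = 5.78e-10). Mylpf was at 0.313, 0.536 and 2.19 CPM in atria and 0.369, 0.612 and 1.15 in ventricles. Its log2 difference of 0.09 (SE 0.18, edgeR adjusted p = 0.649) did not pass, and 11 of 18 mice were higher in ventricles. With library totals in place of TMM factors the sign for Mylpf turned, to -0.45 (adjusted p = 0.0247), where the TMM factors were 1.04 to 1.36 for atrial libraries and 0.74 to 1.02 for ventricular ones. The signs of the other 4 did not turn under any alternative tried.

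**Figure D5:**
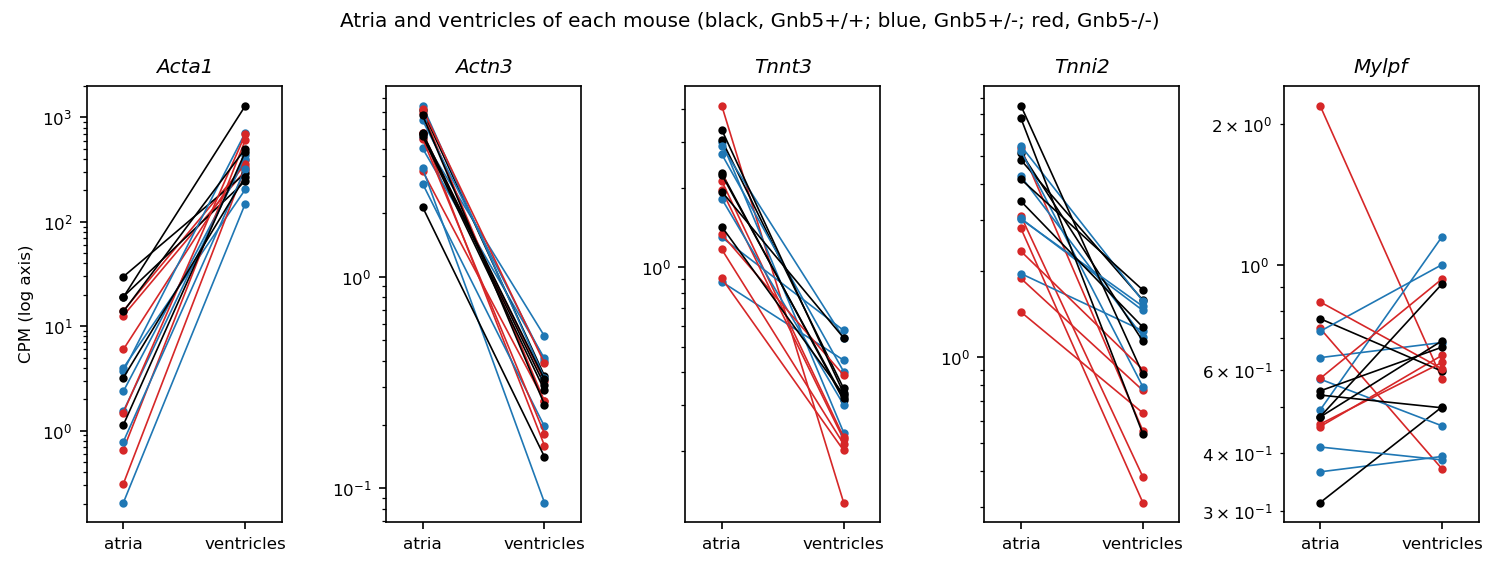
Level (CPM, log axis) of the 5 members tested between chambers, in the atria and ventricles of each of the 18 mice, joined by a line (black Gnb5+/+, blue Gnb5+/-, red Gnb5-/-). Each line rises for Acta1 and falls for Actn3, Tnnt3 and Tnni2, while the lines for Mylpf cross.

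Of the 9 members, 5 passed the filter on low counts in this comparison and 4 of these were called (1 higher in ventricles, 3 higher in atria). The background was high, with 73.9% of all 16507 genes tested called, and the median log2 difference was -1.93 over the 5 members and -0.02 over all genes. The libraries of 17.2% of genes did not overlap between chambers, as was so for 3 of the 5 members. Of the 27 other skeletal muscle genes 18 were tested, of which 8 were higher in ventricles and 7 in atria. The 4 atrial muscle markers were all called higher in atria (edgeR, median log2 -6.88), the 4 ventricular ones (5.65) and the 8 cardiac ones (0.63) higher in ventricles.

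Several skeletal muscle genes outside the 9 were atrial too. Atp2a1 had a log2 difference, ventricles minus atria, of -4.36 (SE 0.18), Myh8, the perinatal myosin, -4.45 (SE 0.18), and Myl1 -3.05 (SE 0.10). Tnni1, the slow inhibitory troponin, had -3.07 (SE 0.18), Mylk2, a kinase of myosin light chains, -2.88 (SE 0.20), and Neb, the giant ruler of the thin filament, -1.29 (SE 0.13). Cacna1s, the voltage sensor paired with Ryr1, was ventricular, with 2.45 (SE 0.10). So were Tmod4, which caps thin filaments (1.28, SE 0.09), Mybpc2 (1.03, SE 0.08) and Jph1, which holds membranes together at the calcium release sites (0.98, SE 0.06). The edgeR adjusted p of these 10 genes lay between 3.99e-19 and 1.88e-09. Ryr1 had 1.19 (SE 0.29, edgeR adjusted p = 0.000836).

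Against the cardiac copies the members were minor, in CPM per kilobase of exon. Acta1 had a median of 2.26 in atria and 243 in ventricles, where Actc1 had 3044 and 5951. Myh6 had 3413 in atria and 3795 in ventricles, and Myh1 had 0.00382 and 0.00204. Even in the atria of Gnb5-/- mouse 1 the fast myosins were at 0.743 (Myh1), 0.690 (Myh2) and 1.03 (Myh4). Tnni2 had medians of 2.55 and 0.681 beside 1438 and 2143 for Tnni3, and Actn3 had 1.63 and 0.103 beside 401 and 519 for Actn2.

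Several members were also counted in the brain libraries of the Gnb5-/- and Gnb5+/+ mice, 12 per region, where values are CPM on library totals. No brain library came from a Gnb5+/- mouse. Mylpf was at 0.226 to 1.86 CPM over cerebellum, hippocampus and cortex, beside 0.313 to 2.19 in atria. Actn3 was at 0.658 to 2.70 CPM there, above its ventricular range. In the cerebral cortex Myh2 was at 0.847 to 2.18 CPM and Myh1 at 0.360 to 1.52, above all atria but those of Gnb5-/- mouse 1. The 2 scalings differ, so these values are set side by side without a test.

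No member passed the test between genotypes across all genes. In Gnb5-/- against Gnb5+/+ atria, 0 of the 5 members tested were called by edgeR (0.253% of 16181 genes were), 0 by DESeq2, and 2 had an unadjusted p below 0.05. In Gnb5+/- against Gnb5+/+ atria it was 0 of 5 by edgeR (0.0124% of genes), 0 by DESeq2 and 1 unadjusted. In ventricles 4 members were tested. For Gnb5-/- the counts were 0 by edgeR (0.188% of 14866 genes), 0 by DESeq2 and 2 unadjusted, and for Gnb5+/- 0 (0.0202%), 0 and 0. Over all genes in atria, 1318 (Gnb5-/-) and 1169 (Gnb5+/-) of 16181 had an unadjusted edgeR p below 0.05. Over all genes in ventricles these counts were 711 and 720 of 14866. The median log2 difference of the members tested was -0.29 and -0.18 in atria and -0.41 and 0.10 in ventricles, for Gnb5-/- and Gnb5+/- in turn, where the median of all genes lay within 0.01 of 0. Both mutant groups share the Gnb5+/+ libraries. Myh1, Myh2, Myh4 and Tnnc2 passed the filter in neither tissue, and Actn3 in atria alone.

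The exact permutation p-values below are raw, of 36 such tests. Tnni2 had the smallest adjusted p of the members in the Gnb5-/- comparisons. In atria it was at 3.49 CPM (lowest), 5.00 (median) and 7.50 (highest) in Gnb5+/+ and at 1.43, 2.57 and 5.33 in Gnb5-/-. The 2 groups overlapped, with 5 of 6 Gnb5-/- mice below the Gnb5+/+ mean. The log2 difference was -0.92 (SE 0.28, exact permutation p = 0.0152, edgeR adjusted p = 0.311). In ventricles Tnni2 was at 0.539, 1.20 and 1.71 CPM in Gnb5+/+ and at 0.311, 0.596 and 0.904 in Gnb5-/-. Here 6 of 6 Gnb5-/- mice were below the Gnb5+/+ mean, the groups overlapped, and the log2 difference was -1.01 (SE 0.29, exact permutation p = 0.0238, edgeR adjusted p = 0.343). Over the alternatives and the fits that left out a library, the atrial adjusted p was 0.0744 to 0.556 and the ventricular one 0.102 to 0.828.

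Acta1 in atria varied widely among mice. It was at 1.14, 16.4 and 29.9 CPM in Gnb5+/+, at 0.205, 1.96 and 3.99 in Gnb5+/- and at 0.311, 3.75 and 14.1 in Gnb5-/-. The lowest Gnb5+/+ libraries lay among the Gnb5+/- ones. The log2 difference from Gnb5+/+ was -2.78 in Gnb5+/- (SE 0.84, exact permutation p = 0.0260, edgeR adjusted p = 0.610) and -1.29 in Gnb5-/- (SE 0.78, exact permutation p = 0.171, edgeR adjusted p = 0.751). Ventricular markers (Myl2, Myh7, Irx4 and Hey2) were taken as a sign of ventricular tissue in an atrial library, which was itself not tested. They summed to 9.01 to 764 CPM in Gnb5+/+ atria, 5.84 to 355 in Gnb5+/- and 10.8 to 214 in Gnb5-/-. The level of Acta1 was set against this sum. Over the 18 atria, on log2 CPM with genotype means removed, r was 0.48 (permutation p = 0.0547) and rho 0.48 (permutation p = 0.0466), and with genotype means kept r was 0.53 (permutation p = 0.0287). The 2 libraries farthest from the median of the markers were those with the lowest and the highest sum. They were Gnb5+/- mouse 11 (5.84 CPM, Acta1 at 1.54 CPM) and Gnb5+/+ mouse 16 (764 CPM, Acta1 at only 3.22 CPM). Without these 2 libraries r was 0.67 (permutation p = 0.00700) and rho 0.62 (permutation p = 0.0137), so the higher r depends on leaving out mouse 16 as well. Gnb5+/+ mouse 17, which was kept, also went against the relation, with the markers at 9.01 CPM and Acta1 at 19.0 CPM. This single relation was added after the values were seen, and the part of ventricular tissue in the Acta1 levels was not tested.

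Mylpf in Gnb5-/- atria had a log2 difference of 0.77 (SE 0.35, exact permutation p = 0.186, edgeR adjusted p = 0.581), and without Gnb5-/- mouse 1 it was 0.24. Tnnt3 in Gnb5-/- ventricles was at 0.127, 0.217 and 0.389 CPM against 0.312, 0.330 and 0.539 in Gnb5+/+, an overlap with a log2 difference of -0.62 (SE 0.30, exact permutation p = 0.0130, edgeR adjusted p = 0.9998). Ryr1, of the wider list, was at -1.27 in Gnb5-/- ventricles (SE 0.29, edgeR adjusted p = 0.0967) and at 1.78 in Gnb5-/- atria (SE 0.57, edgeR adjusted p = 0.345), and no gene of that list passed in a genotype comparison. The difference between the Gnb5-/- effects in ventricles and atria was called by edgeR for 0 of the 5 members and for 0% of 16507 genes. No member had an unadjusted p below 0.05 there, where 640 of the 16507 genes did, and DESeq2 called 0 members too.

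For the 4 low members, 16 exact permutation tests (two-sided, 6 mice against 6) were run. Their smallest possible p is 0.00216 where no values tie, and it is higher where many libraries hold 0 reads. Myh4 had no reads in 14 of 18 atria and 15 of 18 ventricles. It had none in any Gnb5-/- or Gnb5+/+ ventricles, so the test between these 2 groups could show nothing. The lowest raw p was 0.0152, for Myh1 in Gnb5+/- ventricles, with 0 to 2 reads per library against 0 to 1 in Gnb5+/+, all under the limit of 3 reads. It was the only raw p under 0.05 of the 16. For Myh4 in Gnb5-/- against Gnb5+/+ atria the exact permutation p was 1, with 368 reads in 1 mouse and none in the other 5. With most libraries tied at 0, the size of the difference is much the same in whichever group these 368 reads fall. That test therefore could not respond to a rise in 1 mouse, and nothing is drawn from it.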

How the data were processed

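RNA from atria and ventricles of 18 mice, 6 per genotype, was sequenced by the authors as stranded single-end libraries. Per the labels and the study's methods, they trimmed reads with cutadapt 1.8, removed ribosomal and low-complexity reads, aligned to GRCm38 with STAR 2.5.3a and counted reads per Ensembl gene with HTSeq 0.9.1. The deposited values were these read counts, without normalization. Of 53715 gene identifiers, 53620 matched the GENCODE M21 annotation, which gave symbols and exon lengths, and depth ran from 29355469 to 46118252 reads per heart library.

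Counts were fitted with edgeR 4.0.16 in R 4.3.3 (quasi-likelihood test, TMM, filterByExpr with a count minimum of 10), with genotype alone within a tissue and with the mouse as a block between tissues. A gene was called at an edgeR p below 0.05 after Benjamini-Hochberg adjustment across the whole table. Correlations used 100000 permutations of libraries within genotype and log2 CPM with a prior count of 2. Alternatives were DESeq2 1.42.0, RLE factors, library totals, other filters, robust empirical Bayes, other blocks and samples, and libraries left out. Library totals, the correlations without Gnb5-/- mouse 1 and the relation of Acta1 to ventricular markers were chosen after seeing the data. The edgeR and DESeq2 fits were first run on simulated data. The members and lists were chosen with earlier results of these data known. Named genes were the 9 members, Ryr1, the 10 other skeletal muscle genes of smallest adjusted p, and the 10 genes per tissue closest to the summed level. Others, among them Mybpc1, were named after their values were seen. Nothing ties the libraries to separate batches in the sources used here.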

Additional observations from a re-analysis of the deposited data

Results flagged for a closer look

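In groups of 6 libraries, a library was set aside for a closer look where its gap to the nearest other exceeded Dixon's 95% critical value. Of 52 member and group combinations with values above 0, 12 met this, and 5 of the 12 were from the atria of Gnb5-/- mouse 1. Chance gives about 5% for normally distributed values, but in groups near 0 a single read can be enough, so the share of 12 in 52 was not read against it. There Myh1 was at 4.72 CPM, Myh2 at 4.92, Myh4 at 6.19, Tnnc2 at 1.71 and Mylpf at 2.19, while the other 5 Gnb5-/- atria had at most 0.0474, 0.138, 0, 0.0657 and 0.836 CPM in the same order. Myh4 was at 0.749 CPM in the atria and 0.411 CPM in the ventricles of Gnb5+/- mouse 4, where Tnnc2 was at 0.452 CPM in ventricles. Acta1 was at 1292 CPM in the ventricles of Gnb5+/+ mouse 17, against 246 to 501 CPM in the other 5 Gnb5+/+ ventricles. Tnnt3 was at 0.539 CPM in the ventricles of Gnb5+/+ mouse 15, from 13 reads. The remaining ones rest on few reads, with Myh4 at 0.0650 CPM from 3 reads in the atria of Gnb5+/+ mouse 17 and Myh1 at 0.0284 CPM from 1 read in the ventricles of Gnb5+/+ mouse 8.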

How the results depend on the processing

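Of 874 values under alternatives, 830 kept their direction and their side of the threshold. The count of members called between ventricles and atria, 4, was 7 without a filter on low counts (9 members tested) and 1 with at least 10 counts in every library (1 tested). For the difference of the Gnb5-/- effects it was 1, not 0, without the filter (Acta1, log2 1.51, adjusted p = 2.49e-14; 0.894 to 1 over the fits that left out a mouse), and the cause was not tested. Counts of members called were 0 to 0 in the genotype comparisons and in the difference of effects, and 4 to 4 between chambers, over the fits without 1 library or mouse.

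The replicate numbers of the labels join different mice, and same-numbered libraries correlated at -0.19 to 0.15. With the replicate block 0 members were called in each genotype comparison, and without the mouse as a block 4 were called between chambers. Calls over all genes moved by over 1.5 times in Gnb5-/- atria (41 to 110 with DESeq2, 20 with 2 genotypes alone), Gnb5+/- atria (2 to 7 with DESeq2), Gnb5-/- ventricles (28 to 63 with DESeq2), Gnb5+/- ventricles (3 to 0 with the block, 1 with 2 genotypes) and the difference of effects (0 to 18 with DESeq2, 97 without the filter, 2 without the block, 2 with library totals).

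Signs turned for values that passed no test before the change of setting. Leaving out 1 library, the log2 difference ran in Gnb5-/- atria from -0.0792 to 0.167 for Actn3, and in Gnb5+/- atria from -0.0674 to 0.190 for Mylpf and from -0.234 to 0.0162 for Actn3. It ran in Gnb5-/- ventricles from -0.35 to 0.33 for Acta1 and from -0.188 to 0.0794 for Mylpf. In Gnb5+/- ventricles it ran from -0.763 to 0.0634 for Acta1, from -0.0287 to 0.243 for Tnni2 and from -0.13 to 0.20 for Mylpf. For the difference of effects it ran from -0.59 to 0.15 for Tnnt3 and from -0.29 to 0.18 for Tnni2. With library totals Mylpf between chambers was -0.45, and there it passed (edgeR adjusted p = 0.0247).

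For the correlation with the summed level in atria, r turned for Myh2 to -0.0878 without the 2 farthest libraries and -0.0603 without Gnb5-/- mouse 1, and for Myh4 to -0.32 and -0.23. In ventricles r for Acta1 was -0.0845 with genotype means kept, -0.0579 without the 2 farthest and -0.0051 with the mean of log2 levels, for Myh2 -0.0463 with genotype means kept, and for Tnnt3 0.36 with genotype means kept and 0.0142 with the mean of log2 levels. Between the tissues of a mouse r turned for Acta1 (-0.18) and Myh1 (-0.23) without the 2 farthest mice, for Myh1 (-0.23), Myh2 (-0.11) and Tnnc2 (0.11) without Gnb5-/- mouse 1, and for Tnni2 (0.12) with genotype means kept. For Myh4 r moved from 0.46 to 0.90 without Gnb5-/- mouse 1 and to 0 without the 2 farthest mice. Acta1 against ventricular markers in atria moved below a permutation p of 0.05 for r with genotype means kept (0.53) and without the 2 farthest libraries (0.67).

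Depth limits the low members, since 1 read in a heart library is about the level of most values for Myh1, Myh2, Myh4 and Tnnc2, and absence was not measured. With 1 library per mouse, a library and its mouse cannot be told apart.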

Other observations

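The ventricles of Gnb5+/+ mouse 17, which had the highest Acta1 of the 18, also held 303 reads of Bmp10, a growth factor of the heart, against at most 27 in the other ventricles, and 141 of Acp5, a phosphatase of macrophages and osteoclasts, against at most 28. They were 2 of 5 genes that stood apart there, and no other ventricular library had any. The atria of the same mouse held 3 reads of Myh4. These genes were named after their values were seen.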
